A study of Homo sapiens with 8 samples.

Results

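The BCL2 family, the group of proteins that decides whether a cell starts the mitochondrial route of programmed death, was followed in human embryonic stem cells with and without extra copies of ZFX, a zinc finger transcription factor. The genes were BCL2, BCL2L1, BCL2L2, MCL1, BAX, BAK1, BAD, BID, BCL2L11 and BBC3, and every probe that the platform annotation assigns to one of these 10 symbols was taken, which gave 23 of the 48802 probes on the array. RNA of 4 lines was hybridised to Illumina bead arrays, 2 arrays a line. H9 is the parental line, an established human embryonic stem cell line, and clone 3 is a control line derived from H9 as a clone. ZFX clone 2 and ZFX clone 5 are H9 clones that received a bacterial artificial chromosome with the ZFX locus and were picked by drug resistance. All 4 lines were kept under the same stem cell culture conditions. Each ZFX line is 1 clone, whether clone 3 was also drug-selected is not given in the labels, and nothing in them says that the arrays of a line come from separate cultures. P-values between lines therefore measure only the spread between 2 arrays of a line, which may be technical.

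Members of this family share BCL2 homology (BH) domains and act on the outer mitochondrial membrane. BAX and BAK1 are the effectors, which form pores in that membrane and release cytochrome c. BCL2, BCL2L1 (its long form is BCL-XL), BCL2L2 (BCL-w) and MCL1 hold the effectors in check, and the BH3-only proteins BAD, BID, BCL2L11 (BIM) and BBC3 (PUMA) relay death signals by binding the pro-survival proteins, the effectors or both. Human embryonic stem cells are known to die readily when dissociated or when their DNA is damaged, and gain of the chromosome segment 20q11.21, which holds BCL2L1, is a recurrent change of such cells in culture.

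Values are background-corrected, quantile-normalised intensities on the log2 scale, and a log2 fold is a difference of 2 such values. Between 19177 and 20588 probes an array were detected, meaning a deposited detection p under 0.05. A probe was tested if detected on at least 2 arrays, which held for 23280 probes, and was called at an adjusted p under 0.05 (limma with Benjamini-Hochberg adjustment over all of these probes). ZFX itself was higher in the ZFX lines by 1.34 (SE 0.163, adjusted p = 0.000184, limma), with line means of 6.02 in H9, 6.19 in clone 3, 7.60 in ZFX clone 2 and 7.30 in ZFX clone 5. The 7 pluripotency markers tested were detected in every line, and the folds of POU5F1 (-0.16), NANOG (-0.24) and SOX2 (-0.01) between ZFX and control lines did not pass. Clone 3 stood apart. Its arrays correlated at 0.980 to 0.984 with those of the other lines, against 0.985 to 0.992 among the others and 0.993 to 0.994 within a line. All 6 primitive streak and mesendoderm markers tested (EOMES, TBXT, MIXL1, GSC, FOXA2 and CER1) were higher in clone 3 than in H9, with a median fold of 3.42. Their summed linear level was 2671 to 2799 in clone 3, 216 to 228 in H9, 157 to 193 in ZFX clone 2 and 163 to 166 in ZFX clone 5. Every result below that rests on clone 3 moves together with these markers, and their part in it was not tested.

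Of the 23 probes of the family, 16 were tested, and they represent 9 of the 10 genes. BBC3, a BH3-only gene induced by p53, has 1 probe on the array (ILMN_1729645), which was not detected on any array, so its RNA is not described further. The other probes not detected on any array were ILMN_1701120 and ILMN_2363250 of BCL2, both annotated to the transcript of the beta form, ILMN_2258383 of BAX and ILMN_2259495 of BID. ILMN_1685398 of BAD was detected on 1 array, of clone 3, and ILMN_1774997 of BCL2L11 on 1 array, of ZFX clone 5. Among the tested probes, 13 were detected on all 8 arrays. The exceptions were ILMN_1720360 of BAD, detected on 6 arrays and on 0 of clone 3, ILMN_1801119 of BCL2, on 4 arrays, and ILMN_1766541 of BCL2L11, on 3. These dim probes passed the filter through the lines in which they were bright, so the 16 probes are not a neutral draw of the 23.

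No probe of the family was called between the ZFX lines and the control lines. The count was 0 of 16, where 380 of all 23280 probes were called (1.63%), and 0 of 16 also had an unadjusted p under 0.05, where 9.94% of all probes had one. The log2 folds ran from -0.18 for a BAX probe to 0.38 for a BAD probe, with a median of 0.14 and 13 of 16 above 0. Over all tested probes the median fold was -0.0043 and 48.9% were above 0. For 2 of 16 probes the ZFX arrays lay above all control arrays without overlap, where this held for 5.12% of all probes. They were ILMN_1746561 of BCL2L2 and ILMN_1738652 of BAD. For 0 of 16 the ZFX arrays lay below all control arrays, where this held for 4.50% of all probes. The intervals limit what the arrays could show. For BCL2L1 (ILMN_1654118) the 95% interval of the fold was -0.21 to 0.59, and for ILMN_1803988 of MCL1 it was -0.07 to 0.37. The fit used 1 correlation between arrays of a line, 0.352, for all probes. It makes the interval too narrow where the lines of a group differ, as for BCL2L1 (mean 9.33 in H9, 8.34 in clone 3). Its folds with 1 control line alone, 0.68 (clone 3) and -0.30 (H9), lie outside that interval.

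**Figure D1:**
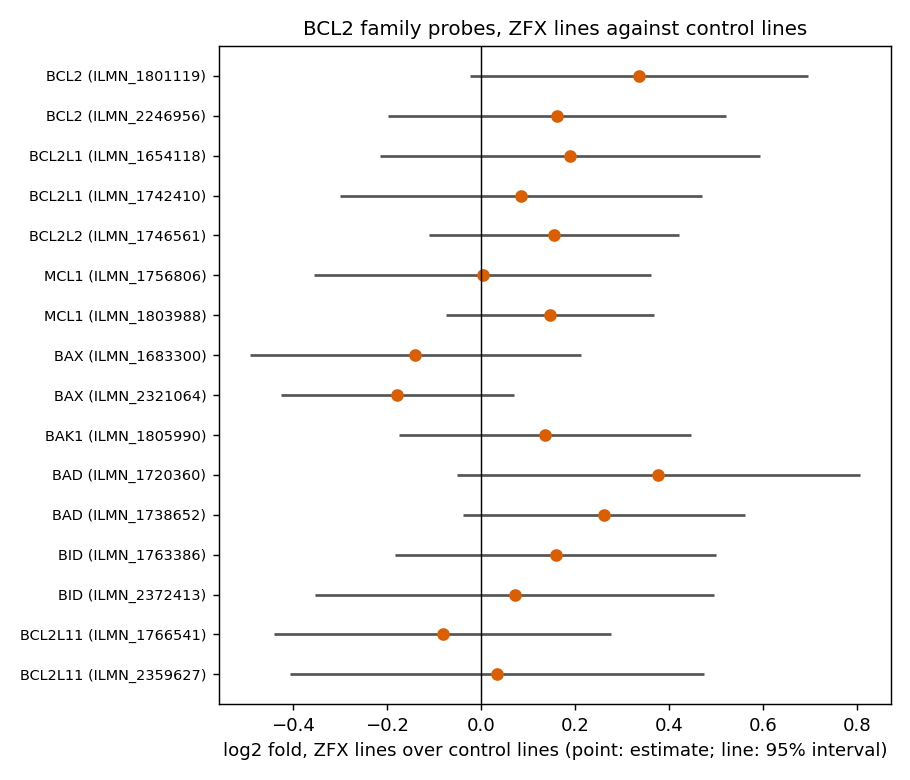
Log2 fold of the ZFX lines against the control lines (x axis) for each of the 16 tested probes of the BCL2 family (y axis), with its 95% interval as a line. All intervals cross 0, and the estimates run from -0.18 to 0.38. Intervals are too narrow where the lines of a group differ, as for BCL2L1.

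The comparison of ZFX with control lines joined 2 control lines that differed from each other. With clone 3 as the only control line, 3 probes were called higher in the ZFX lines, BCL2L1 ILMN_1654118 by 0.68 (adjusted p = 1.50e-05), BAD ILMN_1720360 by 0.72 (adjusted p = 0.00686) and BID ILMN_2372413 by 0.47 (adjusted p = 0.0327, all limma). The BAD probe was not detected in clone 3 and passed the filter through the other lines, so its call is not independent of the filter. With H9 as the only control line, 0 probes were called. The same BCL2L1 probe then had a fold of -0.30 (adjusted p = 0.0555), the BAD probe 0.03 and the BID probe -0.32. The line pairs below give these differences 1 by 1, and since pairs share lines they are not independent of each other.

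**Figure D2:**
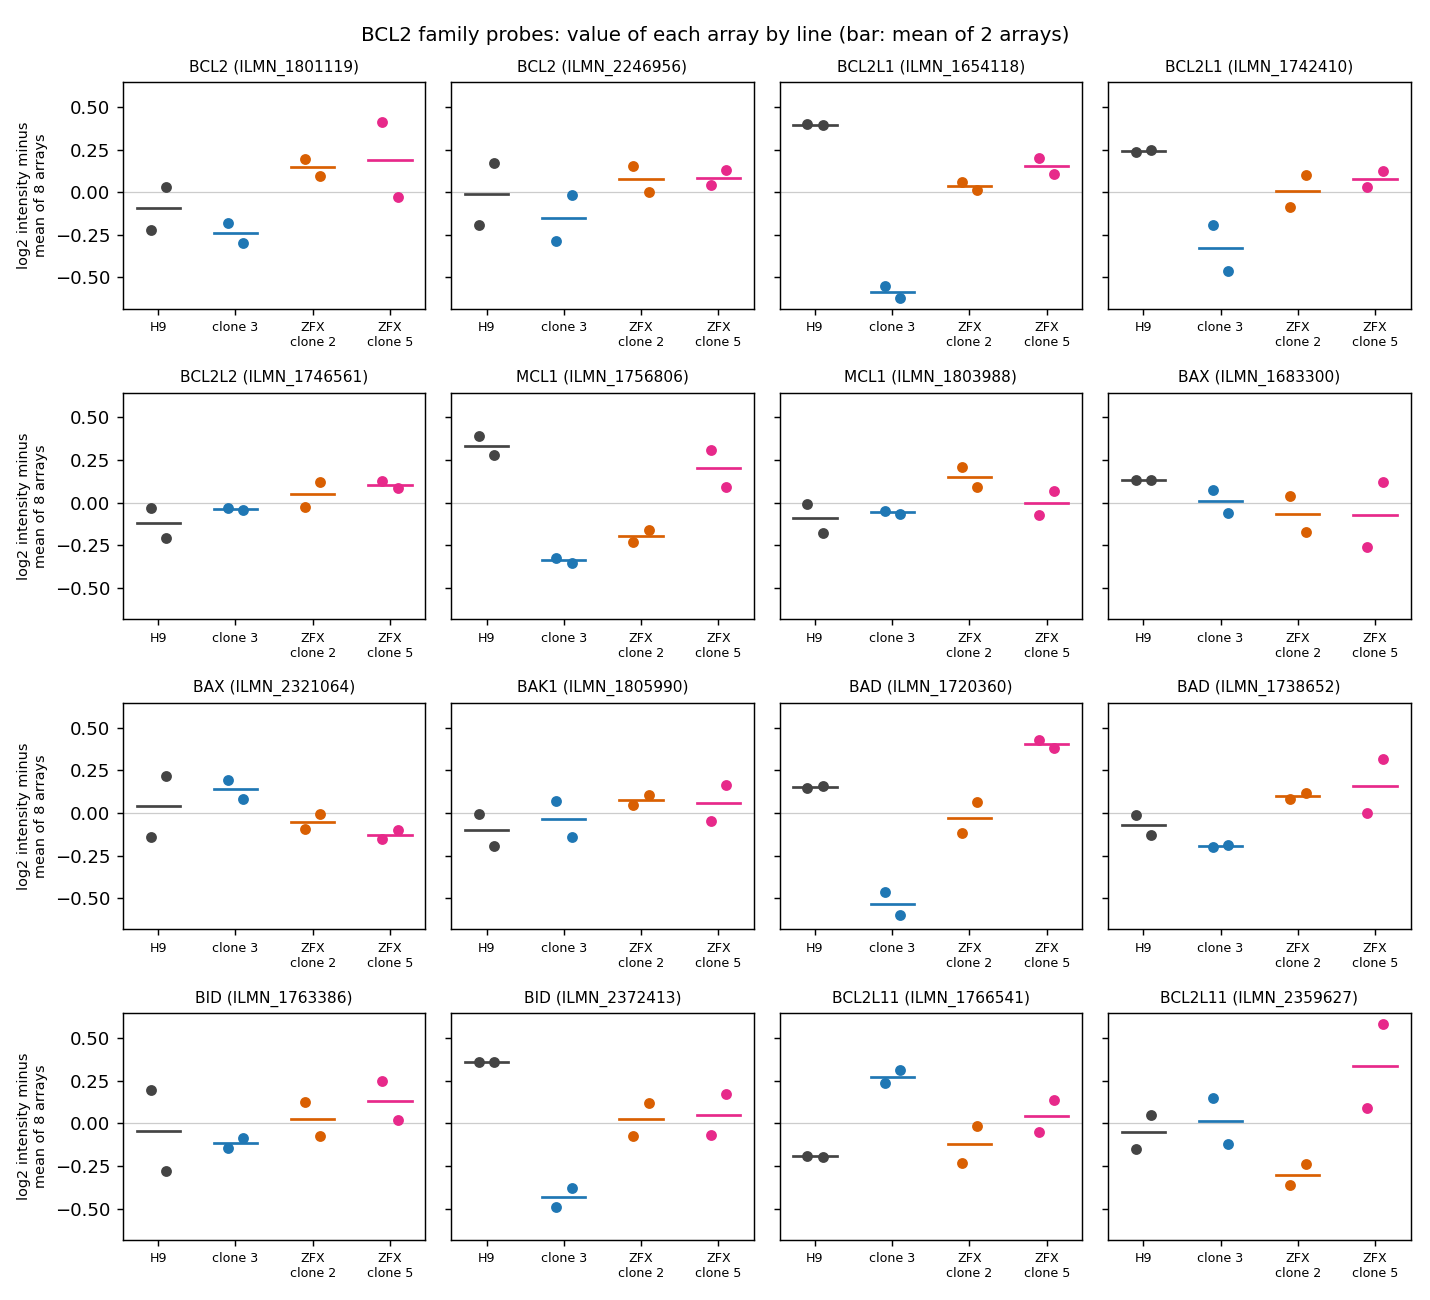
Log2 intensity of each array minus the mean of the 8 arrays (y axis), by line (x axis), for the 16 tested probes; points are arrays and bars are means of 2 arrays. Clone 3 lies below the other lines for both probes of BCL2L1, both of BAD, MCL1 ILMN_1756806 and BID ILMN_2372413. The BAX and BAK1 probes show no such step.

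BCL2L1 had the largest differences between lines of any member. Its long product blocks BAX and BAK1, while a shorter splice form promotes death. The files do not say which form the probes read, and both are annotated to the same transcript. ILMN_1654118 read 9.33 and 9.32 in H9, 8.38 and 8.31 in clone 3, 8.99 and 8.94 in ZFX clone 2, and 9.13 and 9.03 in ZFX clone 5. Both H9 arrays were above all others, both clone 3 arrays were below all others, and the ZFX clones lay between without overlap with either control line. Clone 3 was lower than H9 by 0.98 (SE 0.0881, adjusted p = 1.67e-09, limma), a linear fold of 0.506. In bulk RNA fewer cells with the transcript and less of it per cell cannot be told apart. ZFX clone 2 was lower than H9 by 0.36 (adjusted p = 0.00564, limma). This call was lost without ZFX clone 2 replicate 2, with arrays scaled to a common median, and when the variance was fitted without an intensity trend. Against clone 3, ZFX clone 2 was higher by 0.62 (adjusted p = 4.43e-06) and ZFX clone 5 by 0.74 (adjusted p = 2.63e-07, both limma). The order was thus H9, ZFX clone 5, ZFX clone 2 and clone 3. The neighbouring steps that did not pass were H9 over ZFX clone 5 (ZFX clone 5 against H9 -0.24, interval -0.42 to -0.06, adjusted p = 0.116) and ZFX clone 5 over ZFX clone 2 (0.11, interval -0.07 to 0.29, adjusted p = 0.590, both limma).

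The dimmer probe of BCL2L1, ILMN_1742410, read 6.07 and 6.08 in H9, 5.64 and 5.37 in clone 3, 5.75 and 5.93 in ZFX clone 2, and 5.86 and 5.96 in ZFX clone 5. It was lower in clone 3 than in H9 by 0.57 (SE 0.158, adjusted p = 0.0104, limma). This call was lost without H9 replicate 2 (adjusted p = 0.0606) or clone 3 replicate 2 (adjusted p = 0.153). Its fold was -0.20 in the values the authors processed. The probe's folds of the ZFX clones over clone 3, 0.34 and 0.40, did not pass. Both probes thus placed clone 3 lowest and H9 highest.

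Probes of BCL2L1 (both), BAD (1 of 2 tested), BID (1 of 2 tested) and MCL1 (1 of 2) were called lower in clone 3 than in H9, and the windows around the start sites of the first 3 genes are shown (RefSeq, GRCh38.p14, all on the minus strand, written 5′ to 3′ along the gene, 250 bases before to 50 after the start). Capitals mark the core of the motif known for ZFX (AGGCCT) and the GC box bound by SP family factors (GGGCGG, or CCGCCC when read from the other strand), both searched on both strands. For BCL2L1 the windows of both starts are given, and for BAD that of 1 of 2 starts. For BID 1 of 5 is given, which is 1 of the 2 with AGGCCT, and its other starts have none.
BCL2L1, chr20:31723914-31724213: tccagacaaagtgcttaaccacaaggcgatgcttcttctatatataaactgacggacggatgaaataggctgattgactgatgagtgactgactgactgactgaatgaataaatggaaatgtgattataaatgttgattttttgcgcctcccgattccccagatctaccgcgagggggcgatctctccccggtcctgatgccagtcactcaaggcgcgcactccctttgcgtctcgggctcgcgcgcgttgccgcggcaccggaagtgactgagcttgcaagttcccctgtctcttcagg
BCL2L1, chr20:31722819-31723118: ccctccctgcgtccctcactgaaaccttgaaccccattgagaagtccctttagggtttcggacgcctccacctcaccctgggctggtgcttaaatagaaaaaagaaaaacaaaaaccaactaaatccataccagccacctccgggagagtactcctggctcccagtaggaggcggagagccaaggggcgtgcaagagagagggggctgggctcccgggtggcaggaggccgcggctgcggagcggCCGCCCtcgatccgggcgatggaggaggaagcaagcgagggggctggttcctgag
BAD, chr11:64284655-64284954: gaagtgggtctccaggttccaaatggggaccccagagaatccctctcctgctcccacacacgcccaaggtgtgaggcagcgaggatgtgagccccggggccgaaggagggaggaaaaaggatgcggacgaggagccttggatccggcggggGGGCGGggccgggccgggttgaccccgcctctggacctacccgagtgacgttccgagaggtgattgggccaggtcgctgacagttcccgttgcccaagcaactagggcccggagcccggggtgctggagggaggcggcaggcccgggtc
BID, chr22:17773993-17774292: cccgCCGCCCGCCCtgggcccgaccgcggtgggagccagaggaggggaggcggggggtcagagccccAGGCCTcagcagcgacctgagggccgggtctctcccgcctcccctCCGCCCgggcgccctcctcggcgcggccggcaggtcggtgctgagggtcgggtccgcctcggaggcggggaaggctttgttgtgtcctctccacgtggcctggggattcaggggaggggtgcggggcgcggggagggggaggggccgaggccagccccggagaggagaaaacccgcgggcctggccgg
The promoter table held 14 windows for 8 of the 10 genes, with none for MCL1 and BCL2L2. AGGCCT was found in 2 of these windows, which overlap and belong to BID, against 10.9% of all 35116 promoter windows. A GC box was found in 10 windows of 6 genes, against 44.95% of all windows. Windows of BAD, and some of BID, overlap and share boxes, so the 10 are not separate. They held 58.67% to 78% G and C, beside a median of 58.67% over all windows. The first BCL2L1 window holds neither motif, and the second holds a GC box close to the start. A match of letters is a description and shows no binding.

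MCL1, a short-lived pro-survival protein that many cells need for survival, has 2 probes, and these disagreed. ILMN_1756806 read 8.99 and 8.87 in H9, 8.27 and 8.24 in clone 3, 8.36 and 8.43 in ZFX clone 2, and 8.90 and 8.69 in ZFX clone 5. H9 and ZFX clone 5 were high, clone 3 and ZFX clone 2 were low, and the high and the low arrays did not overlap. The probe was lower than in H9 by 0.67 in clone 3 (adjusted p = 6.24e-06) and by 0.53 in ZFX clone 2 (adjusted p = 0.000273, both limma). It was higher in ZFX clone 5 than in clone 3 by 0.54 (adjusted p = 0.000124) and than in ZFX clone 2 by 0.40 (adjusted p = 0.0178, both limma). The last difference, the only one called in the family between the ZFX clones, was lost without either array of ZFX clone 2 or without ZFX clone 5 replicate 1 (adjusted p = 0.0776 to 0.242).

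The second MCL1 probe, ILMN_1803988, read 9.40 and 9.23 in H9, 9.36 and 9.34 in clone 3, 9.62 and 9.50 in ZFX clone 2, and 9.33 and 9.47 in ZFX clone 5. None of its line pairs passed with all 8 arrays, and the fold of clone 3 over H9 was 0.03 (interval -0.15 to 0.22, adjusted p = 0.849, limma). Its fold of ZFX clone 2 over H9 was 0.24 (adjusted p = 0.0676, limma), opposite in sign to that of the first probe, and it was called higher without H9 replicate 1. Both are annotated to the same long transcript, their positions in it are not given in the files, and the difference between the probes was not tested.

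The other pro-survival members differed little between lines. For BCL2, the founding member, the brighter probe ILMN_2246956 read 5.03 and 5.40 in H9, 4.94 and 5.21 in clone 3, 5.38 and 5.23 in ZFX clone 2, and 5.27 and 5.36 in ZFX clone 5. The range of H9 overlapped that of each other line, both clone 3 arrays lay below those of the ZFX clones, and the fold of ZFX over control lines was 0.16 (interval -0.20 to 0.52, adjusted p = 0.918, limma). The dimmer BCL2 probe, ILMN_1801119, ranged from 4.52 to 5.23, was detected on both arrays of ZFX clone 2, on 1 each of H9 and ZFX clone 5 and on none of clone 3, and had a fold of 0.34 (interval -0.02 to 0.70, adjusted p = 0.557, limma). Both probes are annotated to the transcript of the alpha form.

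BCL2L2 shares its start with the readthrough gene BCL2L2-PABPN1, whose RNA cannot be told apart from its own with these files. Its 1 probe read 7.24 and 7.06 in H9, 7.24 and 7.22 in clone 3, 7.24 and 7.39 in ZFX clone 2, and 7.40 and 7.35 in ZFX clone 5. The ZFX arrays lay above the control arrays by a margin that is not visible at 2 decimals. The fold of 0.16 (interval -0.11 to 0.42, adjusted p = 0.836, limma) did not pass, nor did any line pair.

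The effectors had no called probe in any comparison with all 8 arrays. BAX ILMN_2321064 read 8.94 and 9.29 in H9, 9.27 and 9.16 in clone 3, 8.98 and 9.07 in ZFX clone 2, and 8.92 and 8.97 in ZFX clone 5. The ZFX clones overlapped with H9 through the lower H9 array, and the fold of ZFX over control lines was -0.18 (interval -0.43 to 0.07, adjusted p = 0.744, limma). The largest line pair fold of this probe in size was -0.27, ZFX clone 5 against clone 3 (adjusted p = 0.0692, limma), and this pair was called, lower, without either H9 array. BAX ILMN_1683300 ranged from 5.40 to 5.80, with a fold of -0.14 (adjusted p = 0.944). BAK1, the partner of BAX in pore formation, read 6.47 and 6.28 in H9, 6.55 and 6.33 in clone 3, 6.52 and 6.58 in ZFX clone 2, and 6.43 and 6.64 in ZFX clone 5. Both H9 arrays lay below those of ZFX clone 2, all other lines overlapped, and the fold of ZFX over control lines was 0.14 (interval -0.17 to 0.45, adjusted p = 0.923, limma).

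Among the BH3-only members, BAD, which binds BCL2 and BCL-XL and is switched off by phosphorylation, had 1 of its 2 tested probes called in the fit of all 8 arrays. ILMN_1720360 read 5.31 and 5.32 in H9, 4.70 and 4.56 in clone 3, 5.04 and 5.23 in ZFX clone 2, and 5.60 and 5.54 in ZFX clone 5. ZFX clone 5 was highest and clone 3 lowest, with no overlap between any of the lines. As the probe was not detected in clone 3, its level there is only bounded, from the dimmest detected probe of each array. With this bound, which holds on the background-corrected scale alone, clone 3 was at least 1.47-fold lower than H9, at least 1.30-fold lower than ZFX clone 2 and at least 1.75-fold lower than ZFX clone 5. The fitted folds, not the bounds, were tested (adjusted p = 0.00435, 0.0421 and 0.000167, limma). As the probe passed the filter only through the lines other than clone 3, these calls are not independent of the filter. The fitted fold of clone 3 over H9 was -0.69, but -0.19 in the authors' processed values, smaller than the bound, and the call was lost without clone 3 replicate 2 (adjusted p = 0.0534). ZFX clone 5 over clone 3 had a fold of 0.94, and 0.26 in the authors' values. The call of ZFX clone 2 over clone 3 was lost in the authors' values (0.14, adjusted p = 0.0783) and without any 1 array of either ZFX clone or of clone 3 (adjusted p = 0.0510 to 0.254).

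The brighter BAD probe, ILMN_1738652, read 6.73 and 6.62 in H9, 6.55 and 6.55 in clone 3, 6.83 and 6.86 in ZFX clone 2, and 6.75 and 7.06 in ZFX clone 5. The ZFX arrays all lay above the control arrays. Its fold of ZFX over control lines was 0.26 (interval -0.04 to 0.56, adjusted p = 0.614, limma), and its fold of clone 3 over H9 was -0.12 (adjusted p = 0.589), so the step between clone 3 and H9 seen with ILMN_1720360 was not called with this probe. For ZFX clone 5 against clone 3 its fold was 0.35 (adjusted p = 0.0669, limma). That pair was called, higher, without background correction, in the values processed by the authors, with the stricter filter and without ZFX clone 5 replicate 1. The difference between the probes was not tested.

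BID, which is cut by caspase-8 and links death receptors to mitochondria, also had 1 called probe. ILMN_2372413 read 6.45 and 6.45 in H9, 5.60 and 5.71 in clone 3, 6.01 and 6.21 in ZFX clone 2, and 6.02 and 6.26 in ZFX clone 5. H9 was highest, clone 3 was lowest, and the arrays of the ZFX clones lay between and overlapped each other. Clone 3 was lower than H9 by 0.79 (SE 0.150, adjusted p = 0.000273, limma), with a fold of -0.32 in the authors' processed values. The ZFX clones were higher than clone 3 by 0.46 (ZFX clone 2, adjusted p = 0.0367) and by 0.48 (ZFX clone 5, adjusted p = 0.0249, both limma). Without any 1 array of ZFX clone 2 or clone 3 the first of these was lost (adjusted p = 0.0510 to 0.266), and the second was lost without either clone 3 array or ZFX clone 5 replicate 2 (adjusted p = 0.0678 to 0.254). In the authors' processed values these folds were 0.17 and 0.18.

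The other BID probe, ILMN_1763386, had the higher mean and read 6.98 and 6.50 in H9, 6.64 and 6.69 in clone 3, 6.91 and 6.71 in ZFX clone 2, and 7.03 and 6.80 in ZFX clone 5. The H9 arrays alone spanned most of this range. Clone 3 against H9 had a fold of -0.07 (interval -0.37 to 0.22, adjusted p = 0.791, limma), and no pair passed. The probes are annotated to different BID transcripts.

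BCL2L11, whose product BIM binds all pro-survival members, was close to the detection limit. ILMN_2359627, the brighter probe, read 5.02 and 5.22 in H9, 5.32 and 5.05 in clone 3, 4.81 and 4.93 in ZFX clone 2, and 5.26 and 5.76 in ZFX clone 5. ZFX clone 2 was the lowest line, and the difference between the ZFX clones, 0.64 (interval 0.26 to 1.02), did not pass (adjusted p = 0.0583, limma). Without ZFX clone 5 replicate 1 it was called (adjusted p = 0.0347, limma), the only family probe then called between the ZFX clones. ILMN_1766541 ranged from 4.46 to 5.00 and was detected on both arrays of clone 3 and 1 of ZFX clone 5. Its fold of clone 3 over H9 was 0.47 and did not pass (adjusted p = 0.0636, limma), but it was called higher when the variance was fitted without an intensity trend. As the probe was undetected in H9 and passed the filter mainly through clone 3, that call is not independent of the filter.

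Counted by line pair, the called probes of the family lay mostly in pairs with clone 3, as did the called probes of the whole array. Clone 3 against H9 had 5 of 16 called, all lower, where 19.0% of all probes were called and 9.80% were called lower. These 5 probes belong to 4 genes, with both BCL2L1 probes among them. With only the brightest probe of each gene, 1 of 9 was called in this pair, beside 3778 of all 19124 probes. Clone 3 was also the lower line in 3 of 16 against ZFX clone 2 (15.3% of all probes called, 8.20% higher in ZFX clone 2) and in 4 of 16 against ZFX clone 5 (16.4% called, 8.74% higher in ZFX clone 5). Each of these counts with clone 3 includes BAD ILMN_1720360, which was not detected in clone 3, so they are not independent of the filter. ZFX clone 2 against H9 had 2 of 16, both lower, close to the background of 14.3% called with 6.63% lower. ZFX clone 5 against H9 had 0 of 16, where 5.07% of all probes were called, and 3 of 16 with an unadjusted p under 0.05 (limma). ZFX clone 5 against ZFX clone 2 had 1 of 16, higher, where 2.93% were called and 1.05% were called higher. The median fold of the 16 probes was -0.12 for clone 3 against H9, beside -0.02 over all probes, and 0.18 and 0.29 for ZFX clones 2 and 5 against clone 3, beside -0.0014 and 0.01. With arrays scaled to a common median in place of quantile normalisation, 4 probes stayed called for clone 3 against H9, 2 for ZFX clone 5 against clone 3 and 0 in the other pairs. No called fold between lines changed sign under any alternative processing that was run.

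**Figure D3:**
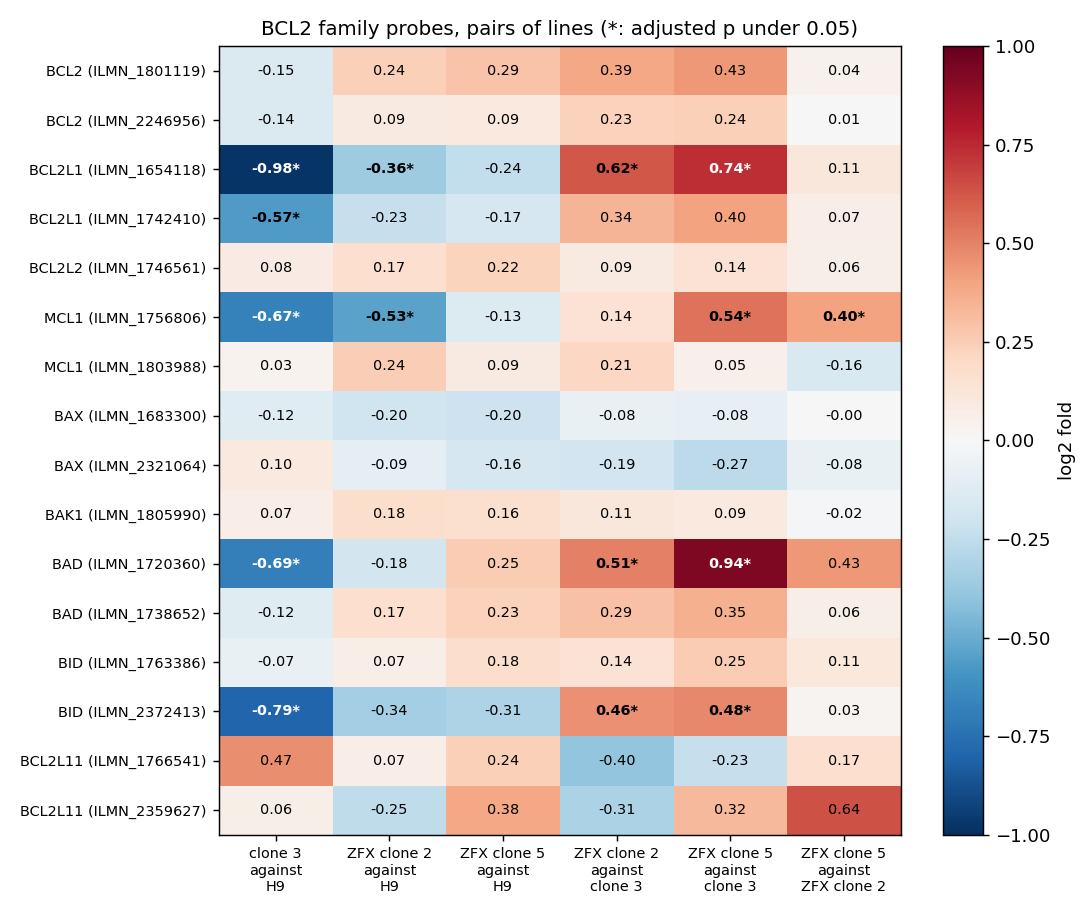
Log2 fold of each of the 16 tested BCL2 family probes (rows) in the 6 pairs of lines (columns), as a number and a colour, with a star where the adjusted p was under 0.05. The called probes of clone 3 against H9 are all lower (-0.98 to -0.57), and the called probes of both ZFX clones against clone 3 are all higher.

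BCL2L1 ILMN_1654118 had the largest F statistic over the 4 lines in the family, 45.1, rank 294 of 23280. Among 12589 other named genes, the 3 whose brightest probe followed it most closely over the 8 arrays were SOX3 (Pearson r = 0.992), TIMM29 (r = 0.987) and SLC6A10P (r = 0.986). These are descriptions over 8 arrays of 4 lines, picked as the highest of many. SOX3, a transcription factor of the SOX family, had line means of 7.36 in H9, 5.91 in clone 3, 6.83 in ZFX clone 2 and 6.96 in ZFX clone 5, the same order as BCL2L1. TIMM29, a subunit of a mitochondrial inner membrane translocase, had means of 8.38, 7.77, 8.17 and 8.20 in that order of lines.

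The neighbours of BCL2L1 at 20q11.21 differed from each other in clone 3 against H9. Of 17 listed neighbours 13 were tested, and in clone 3 against H9 PLAGL2 (-0.69), DNMT3B (-0.51), HM13 (-0.50) and POFUT1 (-0.36) were lower, COMMD7 was higher by 0.27, and the other 8 did not pass (9.80% of all probes were called lower in this pair and 9.18% higher). Their median fold was -0.11, against -0.98 for BCL2L1. HM13 lies on one side of BCL2L1 and the others on the opposite side, and TPX2 (-0.05) and TM9SF4 (-0.07), which lie between BCL2L1 and PLAGL2, did not pass. Between ZFX and control lines 1 neighbour was called, ID1, an inhibitor of basic helix-loop-helix factors, lower by 0.56 (adjusted p = 0.00962, limma). Against H9, 4 neighbours were lower in ZFX clone 2 (6.63% of all probes) and 2 in ZFX clone 5 (2.30%). No copy number was measured, and a change of this segment was not tested. The neighbours other than ID1 were named after their values were seen.

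**Figure D4:**
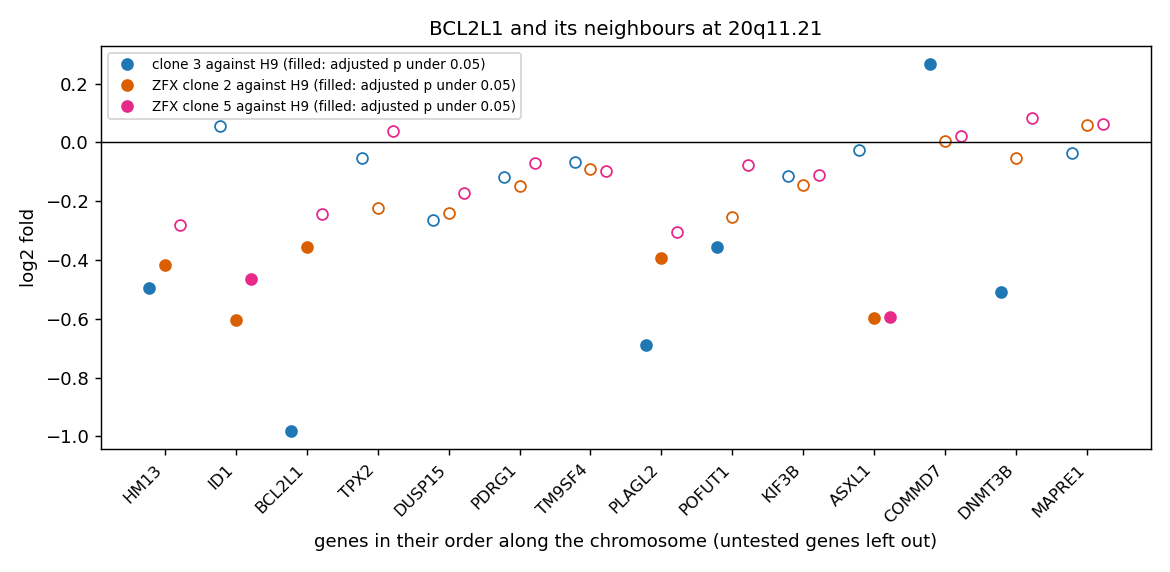
Log2 fold against H9 (y axis) of BCL2L1 and its tested neighbours at 20q11.21, in chromosome order (x axis), for clone 3, ZFX clone 2 and ZFX clone 5. BCL2L1 in clone 3 (-0.98) is the lowest value, and its neighbours in clone 3 run from -0.69 to 0.27.

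Other genes of the death pathway were taken from lists of 1 probe a gene. Between ZFX and control lines, 0 of 9 other BCL2 family genes, 0 of 11 caspases and apoptosome genes, 0 of 4 inhibitors of apoptosis, 0 of 8 death receptors and adaptors and 0 of 7 direct inducers of family genes were called. The largest fold in size in each was -0.53 for BNIP3, -0.30 for CYCS (cytochrome c), -0.22 for XIAP, -0.41 for TNFRSF10A and -0.30 for MYC. Among the regulators of family proteins, 1 of 14 was called, higher, as were 1.03% of all probes. This was USP9X, a deubiquitinase known to remove ubiquitin from MCL1 and so to slow its breakdown.

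USP9X read 10.08 and 10.02 in H9, 9.92 and 9.82 in clone 3, 10.96 and 10.76 in ZFX clone 2, and 10.66 and 10.62 in ZFX clone 5. All ZFX arrays were above all control arrays, and the fold was 0.79 (SE 0.106, adjusted p = 0.000396, limma). It was called in each pair that sets a ZFX clone against a control line, with folds from 0.59 to 0.99. A dimmer USP9X probe had a fold of 0.57 that did not pass (adjusted p = 0.315). USP9X has a close paralog, and the files do not say whether the probes tell them apart.

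Within the other BCL2 family list, 3 of 9 genes were higher in clone 3 than in H9, beside 9.18% of all probes, and all were named after their values were seen. BNIP3, a mitochondrial BH3-like protein induced by low oxygen, was higher by 1.85, PMAIP1 (NOXA, the BH3-only partner of MCL1) by 0.44 and BNIP3L by 0.33. BNIP3 read 9.23 and 9.13 in H9, 11.07 and 10.98 in clone 3, 9.81 and 9.61 in ZFX clone 2, and 9.39 and 9.49 in ZFX clone 5. It was thus highest in clone 3, the line in which BCL2L1 was lowest. PMAIP1 (ILMN_2098446) read 9.05 and 8.93 in H9, 9.36 and 9.49 in clone 3, 9.56 and 9.29 in ZFX clone 2, and 9.54 and 9.74 in ZFX clone 5. All 3 clones were above H9, by 0.44, 0.43 and 0.65 in the same order. Its second probe was called against H9 only in ZFX clone 5 (0.48).

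In the receptor branch, which reaches BID through caspase-8, 4 of 8 genes were higher in clone 3 than in H9 and 1 was lower, beside 9.18% and 9.80% of all probes. The adaptor FADD was higher by 0.97, CFLAR, a caspase-8 regulator, by 0.84, the decoy receptor TNFRSF10D by 0.55 and the death receptor TNFRSF10B by 0.47, while TNFRSF21 was lower by 0.60. Of the caspases and apoptosome genes, 1 of 11 was called in this pair, APAF1, higher by 0.40. Of the inhibitors of apoptosis 1 of 4 was called, BIRC2, higher by 0.46, and of the regulators 2 of 14, BAG3 by 0.41 and FBXW7 by 0.38, both higher. These genes too were named after their values were seen.

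**Figure D5:**
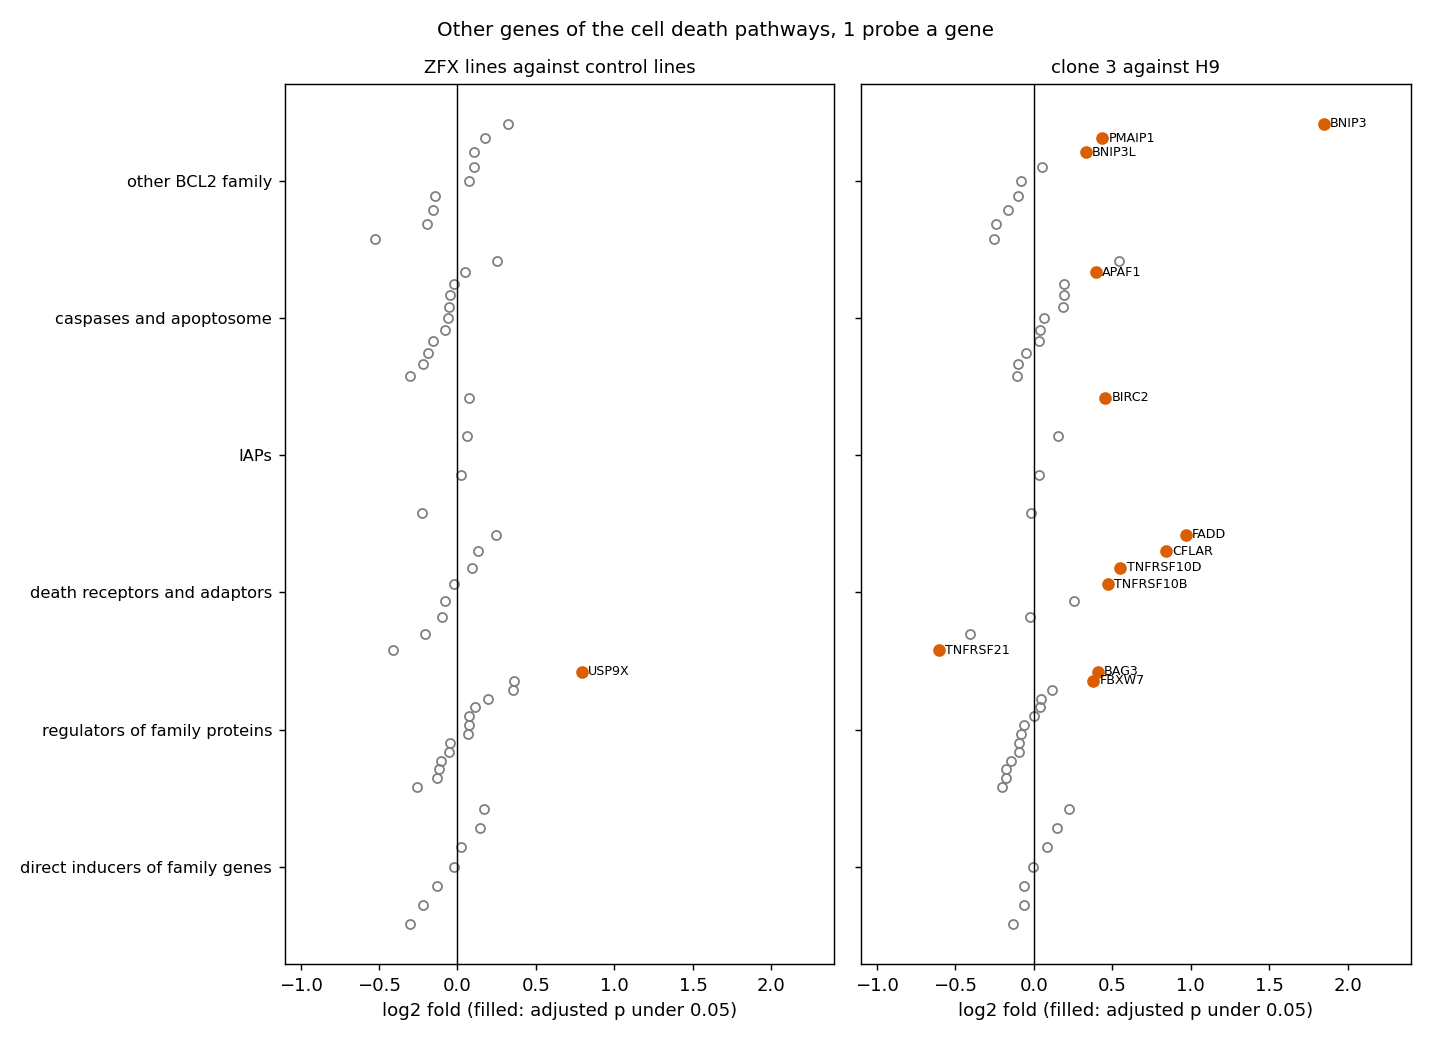
Log2 fold (x axis) of the other death pathway genes by list (y axis), for ZFX against control lines on the left and clone 3 against H9 on the right; filled points had an adjusted p under 0.05. USP9X is the called gene on the left, and BNIP3 (1.85) is the largest fold on the right.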

How the data were processed

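The authors deposited linear probe intensity values and, beside each, a detection p-value, per the file headers, plus a second table of processed values. The submitters' processing notes name BeadStudio, with no version. The authors' processed values behave as log2 (slope 0.975 to 1.01 on log2 intensity, common median 6.76); their background correction and centring are unknown, and they served as an alternative.

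Intensities were corrected by normexp (offset 16, negative controls inferred from detection p) and quantile normalised with limma 3.58.1 in R 4.3.3. ZFX and control lines were compared with the line as a random block (estimated correlation 0.352), and pairs of lines in a model of 4 line means, both with an intensity trend and adjustment over 23280 probes. The number of arrays limits the precision. Symbols came from the platform annotation; of 28098 probes with 1 symbol, 28059 had an Entrez ID found in the RefSeq gene table (13 probes had several symbols, 20691 none).

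Family members, pathway lists and tests were chosen with earlier results of these data known. Named beyond the members were ZFX and 3 pluripotency genes as checks, the 3 genes most like the member with the largest F, and in each pathway list the genes called between ZFX and control lines, or else the 1 with the largest fold in size. The pathway genes and 20q11.21 neighbours given for clone 3 against H9 lie outside this rule and were named after their values were seen. Alternatives changed the background correction, source of the values, normalisation, filter, probes a gene, variance trend, arrays and control line. The fits were tried on simulated data with normal noise. For ZFX against control lines these data had the same line correlation for all probes, so probes such as those of BCL2L1 were not covered. Plots used matplotlib 3.10.9 (Python 3.11.15).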

Additional observations from a re-analysis of the deposited data

Results flagged for a closer look

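For each of the 16 tested probes the 4 ZFX arrays and the 4 control arrays were searched for an array far from the other 3. Of these 32 groups 1 held such an array. Chance alone would mark about 1 group in 20 if the 4 arrays were independent, but arrays of the same line are not. The marked group was that of the control arrays for BCL2L2 (ILMN_1746561), where H9 replicate 2 read 7.06 and the nearest control array 7.22. Without that array the fold of BCL2L2 between ZFX and control lines still did not pass.

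The ZFX clones differed from each other in MCL1 (ILMN_1756806), which was higher in ZFX clone 5 than in ZFX clone 2 by 0.40 (adjusted p = 0.0178, limma, 2 arrays a line). Both arrays of ZFX clone 5 lay above both of ZFX clone 2. The second MCL1 probe had a fold of -0.16 in this pair and did not pass (adjusted p = 0.425).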

How the results depend on the processing

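No probe of the family was called between ZFX and control lines under any alternative except clone 3 as the only control line, which called 3. Counting each probe under each alternative as 1 fold, 294 folds in this comparison kept sign and call, 14 changed sign and 3 became called. With H9 as the only control line the signs turned for BCL2L1 ILMN_1654118 (-0.30) and ILMN_1742410 (-0.20), MCL1 ILMN_1756806 (-0.33), BID ILMN_2372413 (-0.32) and BCL2L11 ILMN_1766541 (0.15). MCL1 ILMN_1756806 was -0.077 with median scaling. Leaving out 1 array turned folds near 0, with ranges of -0.028 to 0.15 for BCL2L1 ILMN_1742410, -0.077 to 0.089 for MCL1 ILMN_1756806, -0.031 to 0.16 for BID ILMN_2372413 and -0.13 to 0.12 for BCL2L11 ILMN_2359627. Of the called folds between lines, counted in the same way, 194 stayed called, 35 no longer passed and 0 changed sign. The cause was not tested. Called probes of the family fell to 0 for ZFX clone 2 against H9, 0 for ZFX clone 2 against clone 3, 2 for ZFX clone 5 against clone 3 and 0 between the ZFX clones with median scaling, which kept 4 for clone 3 against H9. Without a filter on dim probes 1 was called for ZFX clone 2 against clone 3. With 1 probe a gene (9 tested) the counts were 1 for ZFX clone 2 against H9, 1 for ZFX clone 2 against clone 3, 1 for ZFX clone 5 against clone 3, 1 for clone 3 against H9 and 0 between the ZFX clones, as the other called probes were not tested there. Of all 19124 probes then tested, 2905, 3106, 3273, 3778 and 625 were called in these pairs, in the same order. Without an intensity trend the counts of family probes were 1 for ZFX clone 2 against H9, 0 between the ZFX clones and 6 for clone 3 against H9, where BCL2L11 ILMN_1766541 was added. The probe called between the ZFX clones without ZFX clone 5 replicate 1 was BCL2L11 ILMN_2359627 in place of MCL1. Leaving out 1 array at a time gave 0 for ZFX against control lines, 1 to 3 for ZFX clone 2 against H9, 0 for ZFX clone 5 against H9, 1 to 3 for ZFX clone 2 against clone 3, 3 to 5 each for ZFX clone 5 against clone 3 and for clone 3 against H9, and 0 to 1 between the ZFX clones. Replicate numbers did not pair the arrays (correlation of deviations from line means -0.0091 to 0.057). With the replicate block all counts of family probes stayed as they were (0 for ZFX against control lines, 5 for clone 3 against H9), while all probes called between ZFX and control lines went from 380 to 253. That count was 13 with line means, 225 without the trend, 247 with the stricter filter, 651 with the line ignored, 1224 with H9 and 3092 with clone 3 as the only control line, and 203 to 552 without 1 array. Median scaling lowered all calls in pairs with H9 from 3324 to 703 (ZFX clone 2), 1180 to 249 (ZFX clone 5) and 4417 to 1451 (clone 3), in pairs with clone 3 from 3566 to 1554 and 3823 to 1546, and between the ZFX clones from 681 to 49. It moved the share of calls that were higher from 62.9% to 50.9% for ZFX against control lines, from 53.6% to 41.0% for ZFX clone 2 against H9 and from 53.5% to 39.6% against clone 3. Dim probes (BAD ILMN_1720360, BCL2 ILMN_1801119, BCL2L11) lie near the background, which limits their folds.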
